A study of Mus musculus with 7 samples.

Results

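Fibronectin, the tenascins, periostin, the SPARC family, the thrombospondins and matrix Gla protein were examined in the carotid artery of mice from reciprocal crosses. The 10 genes named for this set were Fn1, Spp1, Tnc, Tnxb, Postn, Mgp, Sparc, Sparcl1, Thbs1 and Thbs2, and every probe set annotated to exactly 1 of these symbols was taken. This gave 16 probe sets of 9 genes, of 34958 probe sets with 1 symbol (18194 genes). Spp1, which encodes osteopontin, was not analysed here, since no probe set carried its symbol in the annotation used, which left 9211 of 45101 probe sets unnamed. In addition, 1 probe set annotated to Thbs1 together with another gene was left out.

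RNA of 7 carotid artery samples was hybridised to Affymetrix mouse genome arrays. In 4 samples the mother lacked ApoE and was hypercholesterolemic and the father was wild type (ApoE-null mother 1 to 4). In the other 3 a normocholesterolemic wild-type mother was crossed with a father lacking ApoE (wild-type mother 1 to 3). All offspring, in both groups, were heterozygous for the ApoE null allele, so by the labels the groups differ in which parent lacked ApoE, and maternal and paternal influences cannot be told apart. Strain, age, sex, litter and diet are not stated in the labels, which also do not say whether each sample is a separate animal, so the p-values measure only the spread between these samples. The question of the series was how a hypercholesterolemic parent affects the susceptibility of offspring to atherosclerosis.

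Matricellular proteins are secreted into the matrix but act mainly as signals to cells rather than as load-bearing fibres. They bind integrins and other receptors, growth factors and collagen, and many of them are low in the quiet artery and are induced during injury, remodelling and plaque growth. Fibronectin is an adhesive glycoprotein that is assembled into fibrils through integrins, and matrix Gla protein is an inhibitor of calcification made by arterial smooth muscle and by cartilage.

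Arrays were scaled to 1 trimmed mean before deposit and had median signals of 36.0 to 42.1 with an ApoE-null mother and 38.3 to 41.5 with a wild-type mother. The smooth muscle, endothelial and fibroblast markers of an artery, 5 each, all exceeded the highest bacterial control probe set on every array, but so did all 5 macrophage, all 5 neuron and glomus cell and all 4 measured adipocyte markers, so this check does not single out artery. Adipocyte markers summed to 17120 to 24010 with an ApoE-null mother and 7645 to 21970 with a wild-type mother, and smooth muscle markers to 24150 to 29840 with an ApoE-null mother and 23310 to 30650 with a wild-type mother. The array of wild-type mother 2 stood apart, with a Xist signal of 41.2 against 5174.1 to 5930.9 on the others and a summed signal of 5 skeletal muscle markers of 1696, against 89.0 to 155.6 with an ApoE-null mother and a lowest sum of 146.3 with a wild-type mother. Its cre control transcript, which is added in a fixed amount, read 12269.4, against 8523.5 to 10027.7 on the other arrays. The 3 prime to 5 prime ratios, a check of array quality, were also highest on wild-type mother 2. They were 7.803 for Gapdh (5.033 to 6.561 on the other arrays) and 6.705 for Actb (2.171 to 5.229). The part of this in the results below was not tested. Summed signals of 5 thymocyte markers were 373.1 to 605.2 with an ApoE-null mother and 48.6 to 142.2 with a wild-type mother, without overlap. Cartilage markers summed to 79.9 to 149.4 with an ApoE-null mother and 103.7 to 116.2 with a wild-type mother. Of these, Acan (42.8 to 85.8) exceeded the highest bacterial control on all 7 arrays, Matn3 on 5, Col9a1 on 4 and Matn1 on 3. Col2a1 was below it on all 7. Schwann cell markers (535.6 to 2328 with an ApoE-null mother, 1300 to 4510 with a wild-type mother) and neuron and glomus cell markers (310.0 to 756.8 with an ApoE-null mother, 351.3 to 2205 with a wild-type mother) varied within both groups, and macrophage markers summed to 4143 to 5336 with an ApoE-null mother and 4008 to 4614 with a wild-type mother. The part of these tissues in the results below was not tested.

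None of the matricellular and adhesive genes passed the test between the crosses. Signals were compared on the scale log2(signal + 2) with limma, a linear model that shares information on the spread across probe sets, and p-values were adjusted by the Benjamini-Hochberg method over the 27027 probe sets with a mean signal above 23.6. Of the 13 member probe sets that passed this filter, which belong to 8 genes, 0 had an adjusted p under 0.05 (limma, 0.5425 to 0.947), where 0.0037% of all probe sets did. At an unadjusted p under 0.05 the count was 1 of 13, against 8.25% of all probe sets. Values were positive for 5 and negative for 8 of the 13, with a median log2 fold change (ApoE-null mother minus wild-type mother) of -0.09, against -0.004 over all probe sets kept. The median size of the log2 fold change without regard to sign was 0.20 for the members and 0.19 over all. The groups did not overlap for 1 member probe set that was higher with an ApoE-null mother and for 0 that were lower, where 4.01% of all probe sets were higher without overlap and 4.01% lower. These are bulk samples, in which fewer cells of a type and less RNA per cell cannot be told apart.

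**Figure D1:**
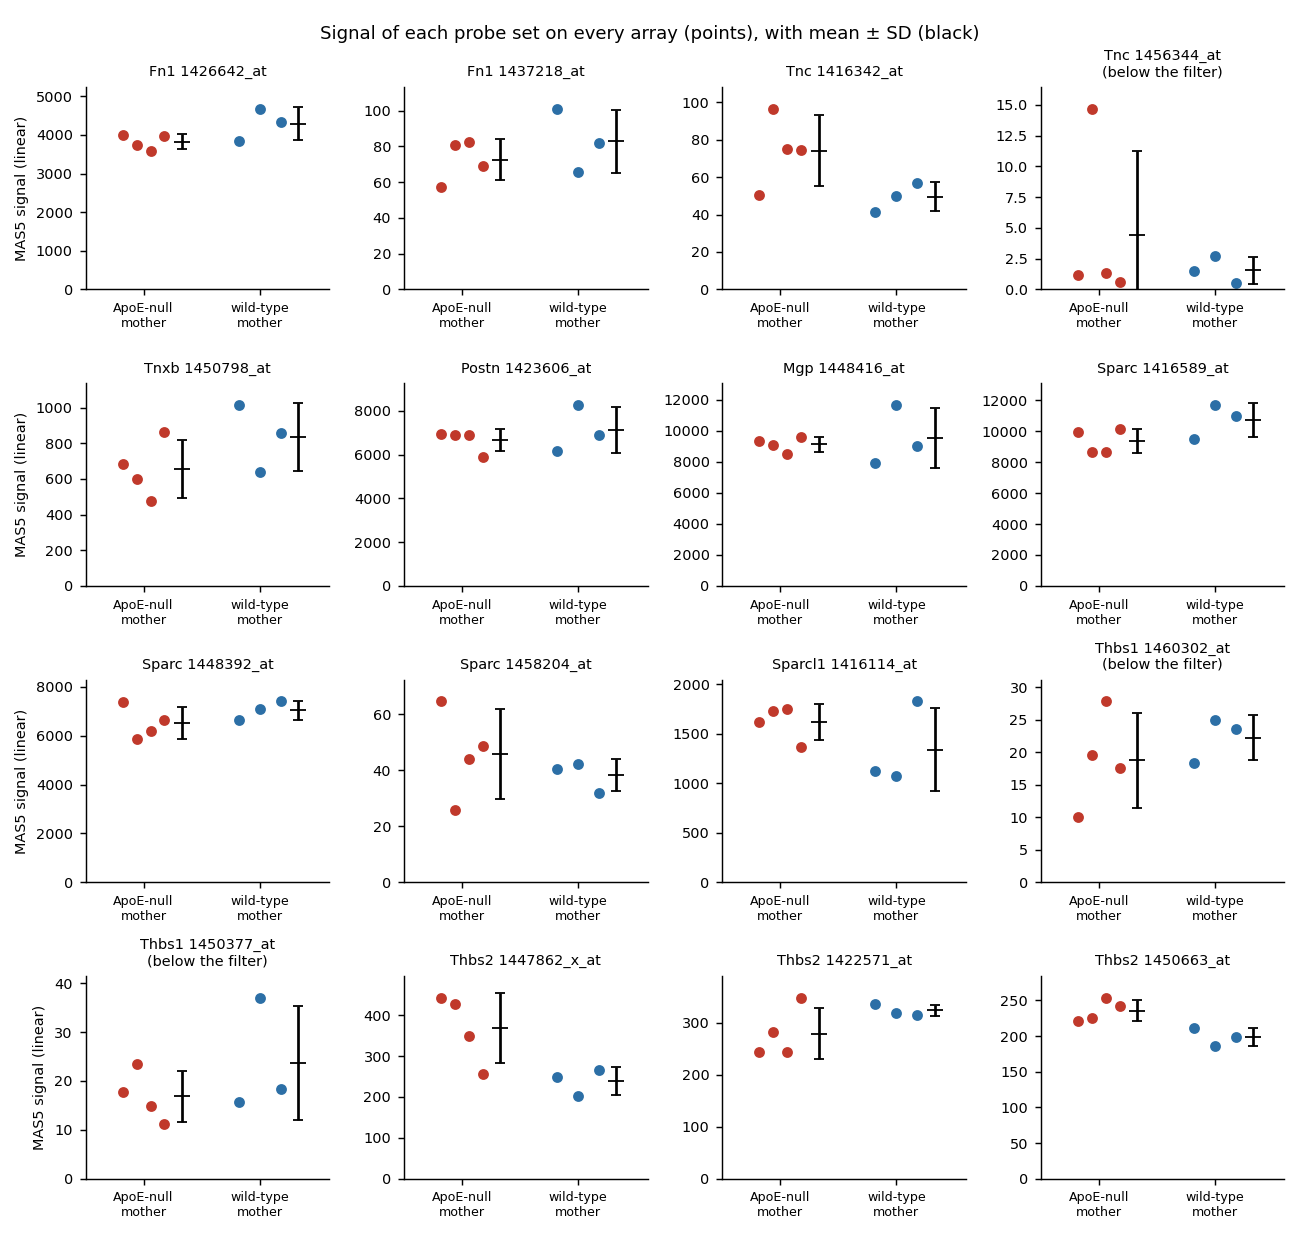
MAS5 signal (linear axis from 0) of the 16 member probe sets on each array, with 4 arrays of the ApoE-null mother group (red, left) and 3 of the wild-type mother group (blue, right) in every panel and the mean ± SD in black. Thbs2 1450663_at is the 1 kept probe set in which the groups do not overlap, at 221.6 to 253.6 with an ApoE-null mother and 185.9 to 211.6 with a wild-type mother.

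**Figure D2:**
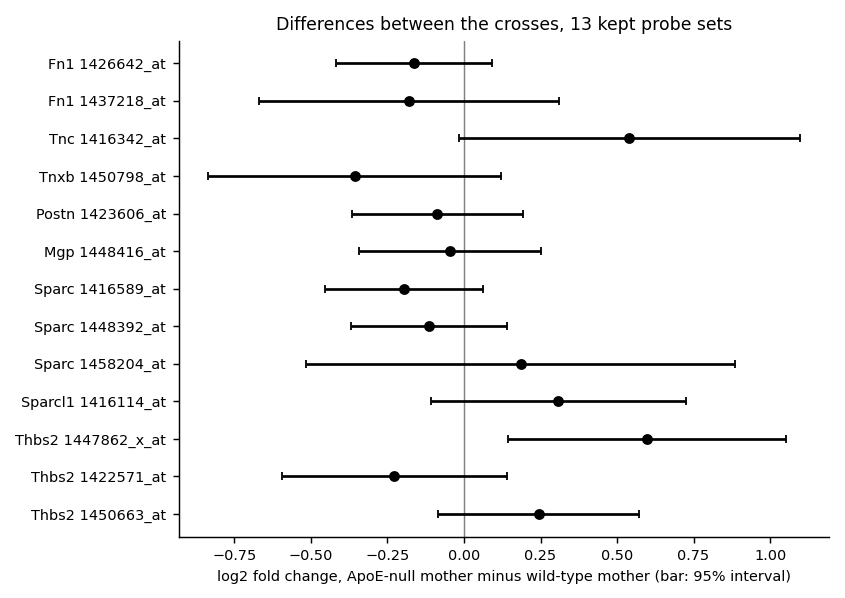
Log2 fold change (ApoE-null mother minus wild-type mother) of the 13 kept probe sets with 95% intervals from limma. The interval of Thbs2 1447862_x_at (0.14 to 1.05) lies above 0 and the other 12 include it.

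The sequences upstream of 3 members are shown: Sparc as one of the pair with the highest correlation across arrays, and Tnc and Thbs2 as the members with the largest positive values. They are the 250 bases before the outermost annotated start from RefSeq (GRCm38.p6), 5′ to 3′ on the strand of the gene. Entries were found for 6 of the 10 genes, and 5 of these had a window at the outermost start. Capitals mark TATAAA, the core of a TATA box, CCAAT, and CAGAC, the letters of a SMAD-binding motif, each searched on both strands and none overlapping another.
Sparc, chr11:55420081-55420330, minus strand: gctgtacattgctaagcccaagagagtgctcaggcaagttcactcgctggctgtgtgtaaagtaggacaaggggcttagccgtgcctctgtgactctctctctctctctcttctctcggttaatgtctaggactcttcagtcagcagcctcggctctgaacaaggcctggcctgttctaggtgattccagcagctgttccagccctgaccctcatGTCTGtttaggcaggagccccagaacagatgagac
Tnc, chr4:64047016-64047265, minus strand: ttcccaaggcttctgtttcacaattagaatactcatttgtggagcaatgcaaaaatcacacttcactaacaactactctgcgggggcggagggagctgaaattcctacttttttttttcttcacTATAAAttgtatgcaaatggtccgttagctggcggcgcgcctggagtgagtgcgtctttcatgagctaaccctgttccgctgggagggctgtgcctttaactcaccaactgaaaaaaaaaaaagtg
Thbs2, chr17:14694263-14694512, minus strand: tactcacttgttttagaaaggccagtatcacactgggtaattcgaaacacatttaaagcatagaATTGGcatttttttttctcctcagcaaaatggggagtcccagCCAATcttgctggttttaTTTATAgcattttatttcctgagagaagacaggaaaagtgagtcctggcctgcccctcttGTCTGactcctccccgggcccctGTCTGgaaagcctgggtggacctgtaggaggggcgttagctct

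Tnc held 1 TATAAA, 126 bases before the start, and neither of the other motifs. In Thbs2 there was 1 TATAAA on the opposite strand, also 126 bases before the start, with 2 CCAAT and 2 CAGAC matches. Sparc held 1 CAGAC match 35 bases before the start and neither other motif. Of 32851 windows of the same length, 12.4% held TATAAA, 33.8% CCAAT and 42.2% CAGAC, so CCAAT and CAGAC are common in any window. No expression value here bears on whether a factor binds these letters.

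Fibronectin, the adhesive glycoprotein of the set, was read by 2 probe sets. Fn1 (1426642_at) had signals of 3996.4, 3743.5, 3579.7 and 3971.2 with an ApoE-null mother, against 3849.6, 4680.0 and 4345.7 with a wild-type mother. The highest 2 arrays were both of the wild-type mother group, and wild-type mother 1 lay within the range of the other group. Its log2 fold change was -0.16 ± 0.12 (SE), with a 95% interval of -0.42 to 0.09 (limma, adjusted p = 0.731), which on the linear scale is 0.748-fold to 1.065-fold. The weaker probe set, 1437218_at, had signals of 57.6, 81.0, 82.4 and 69.3 with an ApoE-null mother and 101.2, 65.8 and 81.7 with a wild-type mother, and a log2 fold change of -0.18 (95% interval -0.67 to 0.31). Both values were negative, and the groups overlapped in both probe sets. With arrays left out in turn, 1426642_at ran from -0.24 without wild-type mother 1 to -0.10 without wild-type mother 2, and 1437218_at from -0.33 without wild-type mother 2 to -0.03 without wild-type mother 1.

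Tenascin C is a large oligomeric protein that weakens the adhesion of cells to fibronectin and is induced in injured and atherosclerotic arteries. Tnc (1416342_at) had signals of 50.3, 96.5, 75.0 and 74.5 with an ApoE-null mother, against 41.4, 50.1 and 56.8 with a wild-type mother. The array of ApoE-null mother 1 lay among those of the wild-type mother group, and the other 3 of its group were above all of these. The means were 74.1 ± 18.9 (n = 4, SD) with an ApoE-null mother, against 49.4 ± 7.72 (n = 3, SD) with a wild-type mother, a log2 fold change of 0.54 ± 0.25 (SE), with a 95% interval of -0.02 to 1.10 (limma, adjusted p = 0.612). All 7 values exceeded the highest bacterial control on their array. With arrays left out in turn, the value ran from 0.40 without ApoE-null mother 2 to 0.71 without ApoE-null mother 1. A second Tnc probe set, 1456344_at, was below the highest bacterial control on all 7 arrays, with signals of 1.2, 14.7, 1.3 and 0.6 with an ApoE-null mother and 1.5, 2.7 and 0.5 with a wild-type mother, and no fold is given.

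Tenascin X is the tenascin of loose connective tissue, where it is associated with collagen fibrils, and its loss causes a form of Ehlers-Danlos syndrome in humans. Tnxb (1450798_at) had signals of 684.1, 598.9, 473.6 and 864.5 with an ApoE-null mother, against 1014.3, 636.9 and 855.3 with a wild-type mother. The ranges overlapped widely, with a high array in each group. Its log2 fold change of -0.36 ± 0.22 (SE) had a 95% interval of -0.83 to 0.12 (limma, adjusted p = 0.686). Leaving out wild-type mother 2 gave -0.54, and leaving out wild-type mother 1 gave -0.21. Tnc and Tnxb therefore had values of opposite sign, and neither passed the test.

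Periostin, a protein of the fasciclin family that promotes collagen cross-linking and is abundant in fibroblasts of remodelling tissue, had one of the smallest differences between the crosses in the set. Postn (1423606_at) had signals of 6969.3, 6920.1, 6900.9 and 5907.7 with an ApoE-null mother, against 6188.8, 8273.3 and 6923.0 with a wild-type mother. In the ApoE-null mother group 3 arrays lay close together and ApoE-null mother 4 was lower, while in the wild-type mother group wild-type mother 2 was the highest of all 7. The log2 fold change was -0.09 ± 0.13 (SE), with a 95% interval of -0.37 to 0.19 (limma, adjusted p = 0.876), and it was 0.02 without wild-type mother 2.

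SPARC, also called osteonectin, binds collagen and assists in its deposition, and its relative SPARC-like 1 (hevin) opposes cell adhesion in vessels and acts at synapses in the brain. Sparc (1416589_at) had signals of 9934.4, 8669.2, 8668.2 and 10145.8 with an ApoE-null mother, against 9486.8, 11693.1 and 10994.9 with a wild-type mother. As for Fn1, the highest 2 arrays were those of wild-type mother 2 and 3, and wild-type mother 1 lay within the other group. The log2 fold change was -0.20 ± 0.12 (SE), with a 95% interval of -0.45 to 0.06 (limma, adjusted p = 0.682). The second probe set, 1448392_at, had signals of 7399.0, 5857.9, 6194.2 and 6657.3 with an ApoE-null mother and 6636.4, 7102.1 and 7407.1 with a wild-type mother, at a log2 fold change of -0.11 (95% interval -0.37 to 0.14). With arrays left out in turn, 1416589_at ran from -0.28 without wild-type mother 1 to -0.13 without wild-type mother 2, and 1448392_at from -0.18 without ApoE-null mother 1 to -0.06 without ApoE-null mother 2. In both strong probe sets the lowest signals were on the arrays of ApoE-null mother 2 and 3. The weakest probe set, 1458204_at, read 25.6 to 64.5 with an ApoE-null mother and 31.9 to 42.3 with a wild-type mother, with a log2 fold change of 0.19 and a wide 95% interval of -0.51 to 0.89. That value was 0.002 without ApoE-null mother 1 and 0.42 without ApoE-null mother 2.

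Sparcl1 (1416114_at) differed in sign from Sparc. Its signals were 1621.6, 1734.2, 1752.9 and 1364.7 with an ApoE-null mother, against 1124.3, 1071.5 and 1826.6 with a wild-type mother. The array of wild-type mother 3 was the highest of all, and the other 2 of its group were the lowest. The means were 1618 ± 179 (n = 4, SD) with an ApoE-null mother, against 1341 ± 422 (n = 3, SD) with a wild-type mother, and the log2 fold change was 0.31 ± 0.19 (SE), with a 95% interval of -0.11 to 0.72 (limma, adjusted p = 0.689). Without wild-type mother 3, which also had the lowest adipocyte marker score and the highest Schwann cell score of the 7 arrays (-1.49 and 1.86, mean log2 deviations), the value was 0.55. Without wild-type mother 2 it was 0.17.

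Thrombospondins 1 and 2 are trimeric glycoproteins that inhibit angiogenesis through CD36 and CD47, and thrombospondin 1 activates latent TGF-beta. Thbs1 had 2 probe sets of its own, and both fell below the signal filter, so Thbs1 was not tested. Thbs1 (1460302_at) read 10.1, 19.6, 27.8 and 17.5 with an ApoE-null mother and 18.3, 24.9 and 23.5 with a wild-type mother. The other probe set, 1450377_at, read 17.8, 23.4, 14.9 and 11.2 with an ApoE-null mother and 15.7, 37.0 and 18.4 with a wild-type mother. Each exceeded the highest bacterial control on 3 of 4 arrays with an ApoE-null mother and on 3 of 3 with a wild-type mother, and the groups overlapped in both.

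The 3 probe sets of Thbs2 gave values of both signs. Thbs2 (1447862_x_at) had signals of 442.8, 427.8, 349.1 and 256.3 with an ApoE-null mother, against 248.4, 202.4 and 267.1 with a wild-type mother. The array of ApoE-null mother 4 lay within the wild-type mother group and the other 3 above it. The means were 369 ± 85.6 (n = 4, SD) with an ApoE-null mother, against 239 ± 33.3 (n = 3, SD) with a wild-type mother, a log2 fold change of 0.60 ± 0.21 (SE), with a 95% interval of 0.14 to 1.05. This was the 1 member probe set with an unadjusted p under 0.05 (limma, adjusted p = 0.5425). With arrays left out in turn, the value ran from 0.48 without wild-type mother 2 to 0.76 without ApoE-null mother 4. The suffix of this probe set marks probes that may also match other transcripts. Thbs2 (1450663_at) had signals of 221.6, 224.6, 253.6 and 242.0 with an ApoE-null mother, against 211.6, 185.9 and 198.2 with a wild-type mother. Each of the 4 signals with an ApoE-null mother lay above each of the other 3, with a log2 fold change of 0.24 and a 95% interval of -0.08 to 0.57 (limma, adjusted p = 0.688). Thbs2 (1422571_at) went the other way, with signals of 242.9, 282.3, 242.9 and 347.9 with an ApoE-null mother and 336.4, 318.9 and 315.2 with a wild-type mother. In that probe set 3 arrays with an ApoE-null mother were below the wild-type mother group and ApoE-null mother 4 was above it, at a log2 fold change of -0.23 (95% interval -0.60 to 0.14). Across the 7 arrays, 1447862_x_at and 1422571_at ran in opposite order (Pearson r = -0.793, a description of probe sets that share their arrays), so no single direction can be given for Thbs2.

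Matrix Gla protein is a vitamin K-dependent protein that binds BMP ligands and keeps the arterial media free of mineral. Mgp (1448416_at) had signals of 9371.5, 9081.9, 8493.3 and 9574.0 with an ApoE-null mother, against 7911.8, 11669.5 and 9037.2 with a wild-type mother. The highest and the lowest of the 7 arrays were both in the wild-type mother group, whose standard deviation was 20.2% of the mean, against 5.15% with an ApoE-null mother. The log2 fold change was -0.05 ± 0.14 (SE), with a 95% interval of -0.34 to 0.25 (limma, adjusted p = 0.947). The value was 0.11 without wild-type mother 2, the array on which the cre control was also highest. Over the 7 arrays, Mgp correlated with the cre control at Pearson r = 0.951, Fn1 at 0.861, Sparc at 0.759 and Postn at 0.699. The coefficients of Tnc (-0.07), Tnxb (-0.06), Sparcl1 (-0.35) and Thbs2 1447862_x_at (-0.42) were at or below 0. These are descriptions over arrays that share their scaling.

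**Figure D3:**
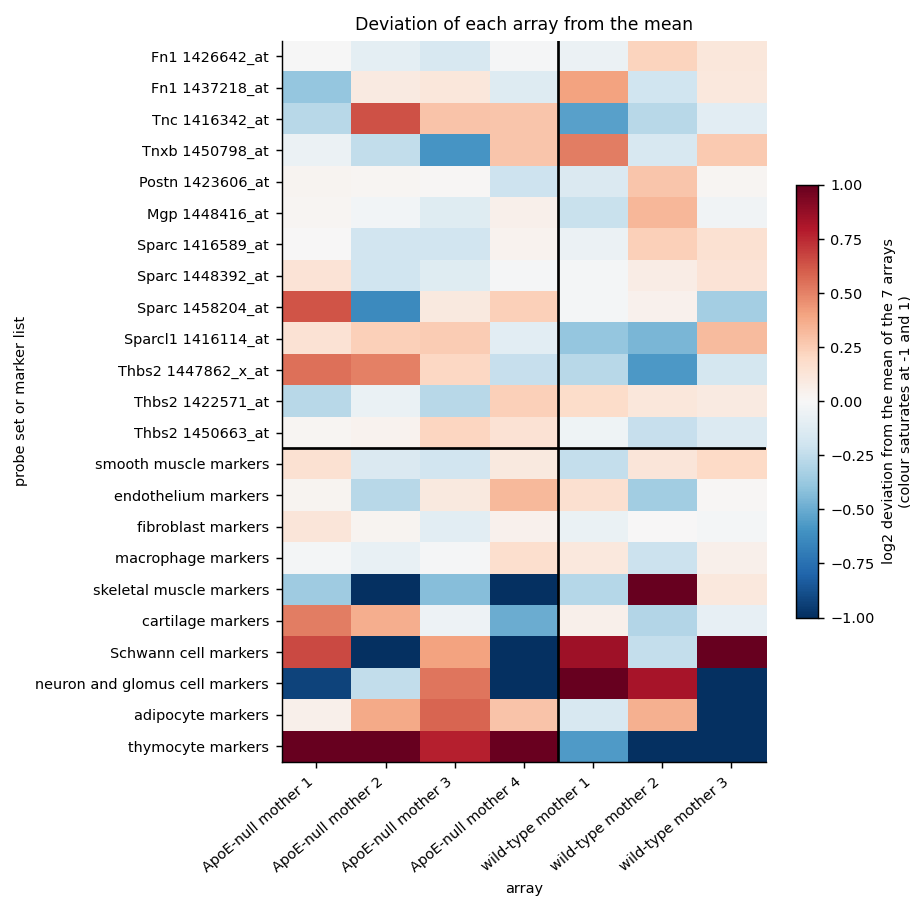
Log2 deviation of each array (columns, ApoE-null mother arrays left of the line) from the mean of the 7 arrays, for the 13 kept member probe sets and, below the line, the mean deviation of each list of cell type markers. Fn1, Postn, Mgp and Sparc 1416589_at are highest on wild-type mother 2, and thymocyte markers separate the groups (0.78 to 1.45 with an ApoE-null mother, -2.13 to -0.57 with a wild-type mother).

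Among the members themselves, Fn1 and Sparc had the highest correlation across arrays. Over the strongest probe set of each of the 8 genes, 28 pairs were compared, with Pearson's r of -0.693 to 0.971. Fn1 and Sparc had r = 0.971 (exact permutation p = 0.000595, 0.0167 after Benjamini-Hochberg adjustment over the 28 pairs) and Spearman's rho = 0.964 (exact permutation p = 0.00278, adjusted 0.0778, which did not pass). Without the 2 arrays farthest from the median of Fn1, ApoE-null mother 3 and wild-type mother 2, r was 0.95 over 5 arrays. After quantile normalization, which removes differences in the overall distribution of the arrays, r was 0.857 (exact permutation p = 0.027, not adjusted). With Sparc 1448392_at and 1458204_at, r with Fn1 was 0.727 and 0.0389. Both genes were also high on wild-type mother 2 with the cre control, whose part in the relation was not tested. The next highest pair was Fn1 and Mgp, at r = 0.771 (exact permutation p = 0.0448, adjusted 0.465) and 0.235 after quantile normalization. Within the groups of 4 and 3 arrays no correlation was computed, because each holds too few samples. The permutations shuffled all arrays without regard to cross, and both probe sets of the top pair had negative log2 fold changes (Fn1 -0.16, Sparc -0.20). The part of the crosses in r was not tested. Genes outside the set correlated more strongly with each, such as Emp3 with Fn1 (Pearson r = 0.996) and Yif1b with Sparc (0.992). The high r is therefore not particular to this pair. The share of all probe sets that reach it was not computed.

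**Figure D4:**
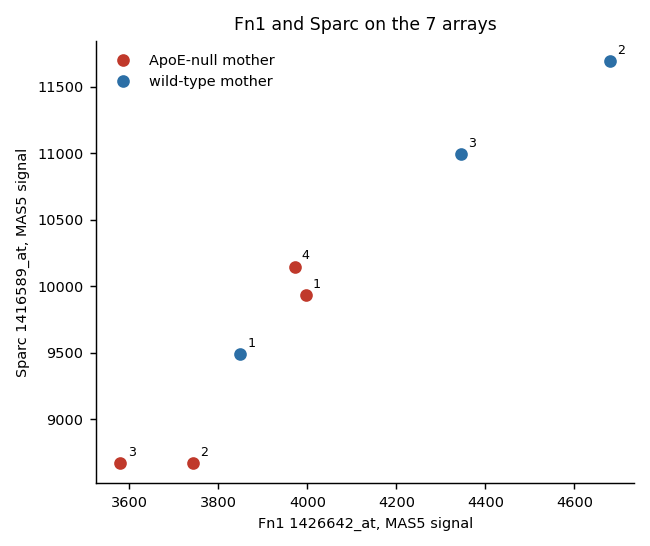
Signals of Fn1 1426642_at and Sparc 1416589_at on the 7 arrays, numbered by replicate within the ApoE-null mother group (red) and the wild-type mother group (blue), on axes that do not start at 0. The arrays of wild-type mother 2 and 3 are highest on both axes and those of ApoE-null mother 2 and 3 lowest.

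For each member the genes with the most similar profile over the 7 arrays were found among all kept probe sets with 1 symbol. Fn1 was closest to Emp3 (Pearson r = 0.996), Tnc to Piwil2 (0.975), Tnxb to Mtg2 (0.983), Postn to Xbp1 (0.982), Mgp to Ndufa2 (0.988), Sparc to Yif1b (0.992), Sparcl1 to Fzd7 (0.981) and Thbs2 to Fmo2 (0.986). The closest profiles after these were Yif1a for Fn1 (0.992), Sin3b for Sparc (0.99), Vegfd for Thbs2 (0.985), Gsk3b for Tnxb (0.983), Trap1 for Mgp (0.983), Fmo2 for Sparcl1 (0.980), Stt3a for Postn (0.978) and Rad51c for Tnc (0.971). Each is an extreme of many coefficients over 7 arrays and is given as a description only.

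Receptors of these proteins were read beside them from a list of 14 genes, all of which passed the filter. None passed the test in either direction (limma, lowest adjusted p = 0.459), 4 values were positive and 10 negative, and the list median was -0.06 on the log2 scale, against -0.008 over the 12713 genes represented by 1 probe set. Groups did not overlap for 0 genes that were higher and 2 that were lower, where 4.34% and 4.24% of all genes did. These were Itga5 and Cd47. Itga5, the alpha subunit of the main fibronectin receptor, had signals of 213.9, 227.6, 149.2 and 203.0 (1458996_at) with an ApoE-null mother, against 297.2, 366.4 and 310.9 with a wild-type mother. All 4 arrays of the first group were below all 3 of the second, with a log2 fold change of -0.72 and a 95% interval of -1.12 to -0.32 (limma, adjusted p = 0.459). A second Itga5 probe set, 1457561_at, did not overlap either (-0.80, limma, adjusted p = 0.458), and the third, 1423267_s_at, overlapped (-0.42). Cd47, a receptor for thrombospondin, had signals of 3079.7, 2676.9, 2945.1 and 2940.6 (1428187_at) with an ApoE-null mother and 3601.6, 3683.8 and 3515.1 with a wild-type mother. Its log2 fold change was -0.31 (limma, adjusted p = 0.550), but the 3 weaker Cd47 probe sets had values of 0.23, 0.35 and 0.18. Cd36 (1423166_at), the thrombospondin receptor that also takes up fatty acids and oxidised lipoprotein, averaged 1371 ± 414 (n = 4, SD) with an ApoE-null mother and 823 ± 375 (n = 3, SD) with a wild-type mother. Groups overlapped, at a log2 fold change of 0.81. With arrays left out in turn, this value ran from 0.35 without wild-type mother 3 to 1.07 without wild-type mother 2. Cd36 1450883_a_at and 1450884_at had values of 0.89 and 0.86, also with overlap. Cd36 is also abundant in fat, and wild-type mother 3 had the lowest adipocyte marker sum, 7645 against 17120 to 24010 with an ApoE-null mother. On wild-type mother 2 that sum was 21970, within the ApoE-null mother range, and Cd36 1423166_at read 1075.9. The part of fat in the Cd36 value was not tested.

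**Figure D5:**
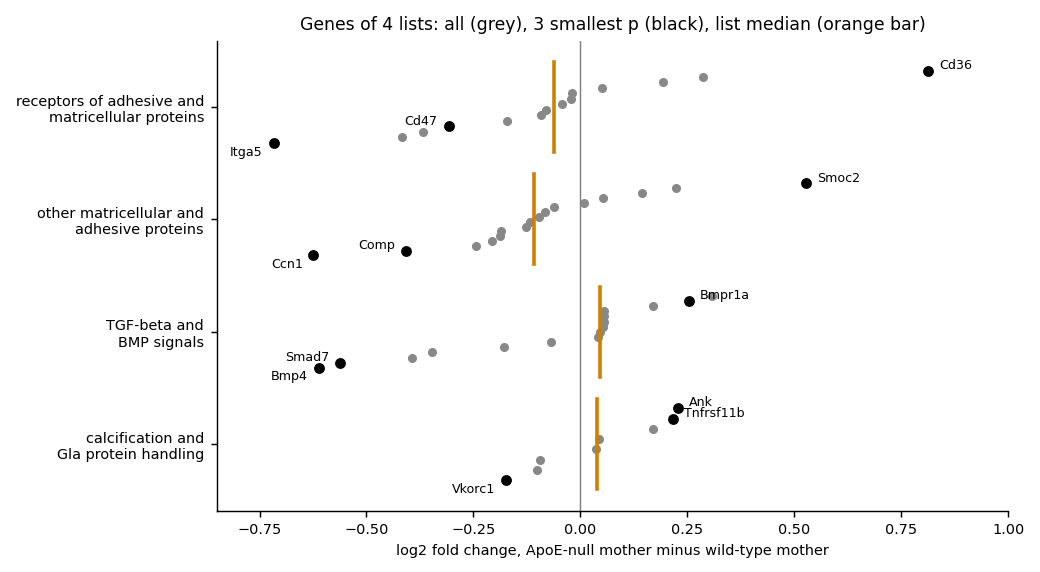
Log2 fold change (ApoE-null mother minus wild-type mother) of every gene of 4 lists that passed the signal filter, with 1 probe set per gene (grey), the 3 genes of each list with the smallest p (black, named) and the median of the list (orange bar). Medians lie between -0.11 and 0.05, and none of the genes passed the test.

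Other matricellular and adhesive proteins were read from another list. All 22 genes had a probe set and 16 passed the signal filter, 5 positive and 11 negative with a list median of -0.11 on the log2 scale, and none passed the test (limma, lowest adjusted p = 0.604). Ccn1 (1457823_at), an integrin ligand induced by stretch and growth factors, averaged 1157 ± 570 (n = 4, SD) with an ApoE-null mother and 1660 ± 215 (n = 3, SD) with a wild-type mother, at a log2 fold change of -0.62. In that probe set ApoE-null mother 1 had the highest signal of all 7 (1988.7). The other kept Ccn1 probe sets had values of -0.65 (1442340_x_at), -0.31 (1416039_x_at) and -0.37 (1438133_a_at). In 1416039_x_at and 1438133_a_at wild-type mother 1 was the highest array. Comp, the fifth thrombospondin, averaged 617 ± 154 (n = 4, SD) with an ApoE-null mother, against 807 ± 133 (n = 3, SD) with a wild-type mother, at a log2 fold change of -0.41. Smoc2, a secreted relative of SPARC, averaged 916 ± 123 (n = 4, SD) with an ApoE-null mother, against 674 ± 269 (n = 3, SD) with a wild-type mother, at 0.53, which was 0.13 without wild-type mother 2 and -0.31 for its weaker probe set. Groups overlapped in these 3 genes. Ccn3, another member of the CCN family and the 1 gene of the list without overlap, was named after its values were seen and averaged 7780 ± 438 (n = 4, SD) with an ApoE-null mother, against 6682 ± 647 (n = 3, SD) with a wild-type mother, at 0.22. This is 1 of 16 genes higher without overlap and 0 lower, where 4.34% of all genes were higher and 4.24% lower.

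TGF-beta and BMP signals, which control many matricellular genes and, for BMP, are bound by Mgp, had 15 of 15 genes past the signal filter, with 9 positive, 6 negative and a median of 0.05 on the log2 scale. Groups did not overlap for 1 gene that was higher and 1 that was lower, beside 4.34% and 4.24% of all genes. None passed the test (limma, lowest adjusted p = 0.523). Smad7, the inhibitor induced by TGF-beta itself, had signals of 265.3, 212.5, 233.2 and 337.7 with an ApoE-null mother, against 397.7, 342.6 and 408.5 with a wild-type mother, below them without overlap, at a log2 fold change of -0.56 with a 95% interval of -0.96 to -0.16. A weaker Smad7 probe set overlapped (-0.17). Bmpr1a, a type I BMP receptor, averaged 1842 ± 76.4 (n = 4, SD) with an ApoE-null mother, against 1545 ± 76.9 (n = 3, SD) with a wild-type mother, without overlap, at 0.25. Of its 5 probe sets, 1425493_at had the largest value, 0.67 (95% interval 0.34 to 1.01, limma, adjusted p = 0.4225), and 1451729_at was the 1 in which groups overlapped (0.15). The ligand gene Bmp4 had a log2 fold change of -0.61 with a 95% interval of -1.30 to 0.07, and -0.40 without wild-type mother 3.

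Genes of calcification and of the vitamin K cycle that modifies Mgp had a probe set for 9 of 12 names, of which 8 passed the signal filter, with 5 positive, 3 negative and a list median of 0.04 on the log2 scale. None passed the test (limma, lowest adjusted p = 0.736) and groups overlapped in all 8. Ank, which exports pyrophosphate, an inhibitor of mineral growth, averaged 1930 ± 172 (n = 4, SD) with an ApoE-null mother and 1672 ± 374 (n = 3, SD) with a wild-type mother, at 0.23, which was 0.03 without wild-type mother 2. Vkorc1, the vitamin K reductase, averaged 3498 ± 358 (n = 4, SD) with an ApoE-null mother, against 3966 ± 657 (n = 3, SD) with a wild-type mother, at -0.17, which was -0.05 without wild-type mother 2. Tnfrsf11b, the decoy receptor osteoprotegerin, averaged 160 ± 48.2 (n = 4, SD) with an ApoE-null mother, against 134 ± 19.6 (n = 3, SD) with a wild-type mother, at 0.22, which was 0.05 without ApoE-null mother 3.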

How the data were processed

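Signals of 7 arrays were analysed, 4 with an ApoE-null mother and 3 with a wild-type mother, grouped by the cross in the labels. The deposited values are linear intensities per probe set, MAS5 signals from GCOS per the submitters' processing notes, whose versions are not given. The deposited arrays had a 2% trimmed mean of 200 each, and this scaling was kept. Detection calls were not used here. Background was read from 27 bacterial probe sets.

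Of 45101 probe sets, 64 controls were left out and the 27027 whose mean exceeded the 40th percentile of all (23.6) were tested on log2(signal + 2). Fold changes on this scale understate changes of weak genes. limma 3.58.1 under R 4.3.3 was used, with lmFit, eBayes(trend) and no covariates and Benjamini-Hochberg adjustment at 0.05. The steps were tested on simulated data. The number of arrays limits the precision, given by 95% intervals. For genes of the lists, the brightest of the kept probe sets stood for the gene. All probe sets of the members are given. In each list the 3 genes with the smallest p were named, and for each member the 2 genes with the highest correlation. The Gapdh 3 prime to 5 prime ratio averaged 5.78 ± 0.675 (n = 4, SD) with an ApoE-null mother and 6.06 ± 1.51 (n = 3, SD) with a wild-type mother (two-sided exact permutation p = 0.8286, smallest possible 0.0286 over 35 splits). Alternatives were other pseudocounts, filters, normalizations, array weights, no trend and leaving out each array. Members, lists and markers were chosen with earlier results of these data known. Symbols come from the platform annotation. Upstream sequences come from RefSeq GRCm38.p6.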

Additional observations from a re-analysis of the deposited data

Results flagged for a closer look

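Among 29 sets of 4 ApoE-null mother arrays examined for a single array far from the rest, 2 were past Dixon's critical value, where chance gives about 1 in 20. For Postn 1423606_at, ApoE-null mother 4 read 5907.7 and the other 3 read 6900.9 to 6969.3, a gap of 0.9356 of the range. For Tnc 1456344_at, ApoE-null mother 2 read 14.7 and the others 0.6 to 1.3, a gap of 0.9504 of the range, and all of these were below the highest bacterial control on their array.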

How the results depend on the processing

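No paired analysis was possible because the labels give the groups no shared replicate numbers. Across 15 alternatives no member passed (limma, lowest adjusted p = 0.394), and 190 of 193 member values kept their sign. Mgp was 0.0018 with array weights and -0.171 to 0.109 with arrays left out (0.109 without wild-type mother 2), and Postn -0.185 to 0.0248 (0.0248 without wild-type mother 2). The 12 named list genes kept their sign in 180 of 180 and none passed. Changing the filter or leaving out the trend cannot alter a fold change, so in both counts those signs were kept by design. With arrays left out in turn, calls over all probe sets were 0 to 16 higher and 0 to 2 lower (1 and 0 with all arrays), and groups did not overlap for 1429 to 2549 higher and 1415 to 2693 lower, fewer arrays making overlap rarer. Quantile normalization and array weights each gave 2 calls higher and no trend 0. Without a filter, 1699 of 45037 probe sets were higher without overlap and 1459 lower, against 1084 higher and 1084 lower of 27027 with it. After quantile normalization the groups of Fn1 1426642_at did not overlap, lower with an ApoE-null mother (-0.16, limma, adjusted p = 0.593). In that setting 1069 of the 27027 probe sets were lower without overlap and 1243 higher. Groups of Thbs2 1450663_at still did not overlap after quantile normalization or median centring, the alternatives that can change the order of arrays. Fn1 and Sparc had r = 0.960 to 0.989 with arrays left out, and this and its quantile normalization were chosen after seeing the data. List medians with arrays left out were -0.153 to -0.011 for receptors, -0.20 to 0.05 for other matricellular genes, -0.04 to 0.06 for TGF-beta and BMP, and -0.01 to 0.10 for calcification. The receptor median was -0.14 with array weights and the calcification median 0.17 above the 60th percentile. The Gapdh ratio difference was -0.80 to 0.585 with arrays left out, 0.585 without wild-type mother 2. The cause was not tested. Signals near the bacterial controls limit Thbs1 and the second Tnc probe set.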
